A study of Mus musculus with 30 samples.

Results

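The 36 genes described here encode the transporters, endocytic receptors, water channel, scaffold and transcription factor with which the proximal tubule of the kidney takes filtered solutes back from the urine. The rule that chose them is a list of names with no threshold on a measured value, drawn up with earlier results of these data known, and all 36 were found by Ensembl identifier among the 57133 genes counted in whole mouse kidney. Poly-A RNA was sequenced in 30 libraries of kidneys labelled Gsta2-H2BeGFP (TG below) or wild type (WT), and the series compares them at rest and early after injury. Without surgery there were 3 TG and 3 WT libraries of females and 3 TG and 3 WT libraries of males. Another 6 TG and 6 WT libraries came from males 4 hours after ischemia-reperfusion injury (IRI) combined with nephrectomy, where the kidney loses and then regains its blood supply. They are set against 3 TG and 3 WT libraries that came from males after nephrectomy (NX), in which a kidney is taken out, with no IRI. The labels do not give the age of the mice, the promoter that drives the transgene, when the NX kidneys were taken, or whether libraries come from separate animals. The p-values below therefore describe variation among libraries, part or all of which may be technical. Column names of the NX and IRI table carry the prefix HNF4aEGsta2, which no label explains, and Hnf4a is a member of the set.

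The proximal tubule is the first stretch of the nephron after the filter. Sodium gradients built by the sodium pump drive cotransporters in its brush border, which take up glucose, phosphate, amino acids and organic acids, while filtered proteins are taken up by the receptors megalin and cubilin. Solutes leave the cell through carriers in the basolateral membrane. The early, convoluted part of the tubule carries high-capacity transporters, and the late, straight part carries high-affinity ones and is known to be the part most exposed to ischemic injury.

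The 12 libraries without surgery held 49040915 to 66446450 counts each, and the 18 NX and IRI libraries 59574069 to 91354407. The lowest count of any member in any library was 579. EGFP, the reporter, had counts in every TG library, from 86 to 1294. It had 0 counts in every WT library except the library labelled WT IRI replicate 1, which held 206 (replicates are numbered from 0). Levels in CPM are counts scaled by the library size that edgeR's TMM factors give. EGFP was at 2.59 CPM in that WT library, above the median of 2.19 CPM in TG IRI kidneys (lowest 1.19, highest 6.34). Whether the label of this library is right was not tested. Gsta2, the gene named in the TG label, was lower in all males labelled TG without surgery, at 38.4 to 72.3 CPM, against 89.1 to 105 CPM in WT males. In females it was at 293 to 339 CPM in TG and 301 to 354 CPM in WT kidneys. After IRI it was at 61.6 to 87.2 CPM in TG and 52.7 to 142 CPM in WT kidneys, and after NX at 72.6 to 182 CPM in TG and 57.6 to 79.3 CPM in WT kidneys. Gsta2 overlapped between TG and WT in all of these groups except the males without surgery. Fat-cell genes stood out in 3 libraries: Adipoq had 1458 counts in WT female replicate 1, 1462 in TG male replicate 1 and 2312 in WT NX replicate 0. Markers of kidney tubule segments, podocytes and endothelium were counted in every group, and the 4 neutrophil markers, which sum to at most 0.854 CPM in any library without IRI, summed to 3.62 to 31.6 CPM in TG IRI and 18.2 to 76.6 CPM in WT IRI kidneys. The IRI and NX libraries were deposited in a table of their own, and no test was made across the 2 tables.

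Per kilobase of exon, the scale on which levels of different genes can be set side by side, the members spanned a wide range in WT males without surgery. Slc34a1, the main brush border phosphate cotransporter, stood highest at 1122 CPM per kb, followed by the water channel Aqp1 at 381 and by Slc3a1, the heavy chain of the cystine transporter, at 258. Next came Hnf4a, a transcription factor of proximal tubule cells, at 219 CPM per kb. Among the glucose carriers, Slc5a2, the high-capacity cotransporter of the early tubule, was at 145 CPM per kb and Slc5a1, the high-affinity cotransporter of the late tubule, at 25.6. The lowest were Slc16a10, an aromatic amino acid carrier, at 9.07 and Slc26a6, an anion exchanger, at 2.13 CPM per kb. Summed over the 36 members, CPM came to 1.67 to 2.74% of the TMM-scaled library size in each library.

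Promoter sequence was at hand for 29 of the 36 members, as RefSeq windows of GRCm38.p6 from 250 bases before to 50 after the start, a build other than the GRCm39 of the counts. Of the motifs searched, the 6 letters GTTAAT were found on either strand in 8 of these 29 genes (27.6%) and in 8.2% of 27025 genes with a window. These were Dab2, Hnf4a, Slc16a10, Slc34a1, Slc3a1, Slc5a10, Slc6a13 and Slc7a7. The HNF4A letters CAAAGTCCA or CAAAGTTCA were found in Pdzk1 and Slc3a1 (6.9% of members, 1.0% of all genes), and the AP-1 letters TGACTCA in Slc26a1 and Slc3a1 (6.9% and 5.9%). The steroid receptor palindrome was in no member window and in 3 of 27025 genes, too rare for its absence to say anything about the members. Both strands were searched for every motif. TATAAA was in 13.8% of members and 15.7% of all genes. A match is a description of letters and not a binding site. The 4 windows below are shown because they belong to the most abundant member, to Slc3a1, which holds 4 of these motifs, to Slc5a10, which differed between the sexes, and to the transcription factor of the set. They lie on the plus strand at chr13:55399398-55399697 (Slc34a1), chr17:85028097-85028396 (Slc3a1) and chr2:163546905-163547204 (Hnf4a, the downstream of its 2 starts), and on the minus strand at chr11:61720750-61721049 (Slc5a10, the upstream of its 2 starts). Capitals mark GTTAAT or its complement ATTAAC, and in Slc3a1 also TGAGTCA, the complement of the AP-1 letters, and CAAAGTCCA.
Slc34a1: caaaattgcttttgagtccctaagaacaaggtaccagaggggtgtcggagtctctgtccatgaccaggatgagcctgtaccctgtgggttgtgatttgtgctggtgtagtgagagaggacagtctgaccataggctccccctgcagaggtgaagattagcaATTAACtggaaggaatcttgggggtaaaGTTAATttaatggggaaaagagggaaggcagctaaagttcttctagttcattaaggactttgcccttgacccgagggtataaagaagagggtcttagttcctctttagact
Slc3a1: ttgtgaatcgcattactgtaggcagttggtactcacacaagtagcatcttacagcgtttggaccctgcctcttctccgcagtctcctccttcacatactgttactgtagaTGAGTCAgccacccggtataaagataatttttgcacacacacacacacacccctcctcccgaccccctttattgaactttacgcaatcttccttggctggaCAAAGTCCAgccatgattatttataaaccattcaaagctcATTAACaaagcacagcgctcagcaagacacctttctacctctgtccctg
Slc5a10: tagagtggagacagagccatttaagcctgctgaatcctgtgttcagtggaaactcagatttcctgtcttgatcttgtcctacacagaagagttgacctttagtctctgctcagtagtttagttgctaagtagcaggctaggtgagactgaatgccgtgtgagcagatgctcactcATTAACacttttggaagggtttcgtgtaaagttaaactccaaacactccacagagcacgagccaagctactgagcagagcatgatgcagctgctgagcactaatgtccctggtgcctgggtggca
Hnf4a: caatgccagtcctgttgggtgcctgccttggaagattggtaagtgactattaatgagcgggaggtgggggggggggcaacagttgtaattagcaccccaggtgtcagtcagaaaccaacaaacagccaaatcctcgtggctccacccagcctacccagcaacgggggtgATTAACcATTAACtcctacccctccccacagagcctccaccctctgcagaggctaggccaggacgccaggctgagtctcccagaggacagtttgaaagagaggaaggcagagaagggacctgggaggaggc
In the Slc34a1 window these 6 letters ended 84 and 56 bases before the start, in Slc5a10 they ended 70 bases before it, and in Hnf4a they ended 76 and 69 bases before it.

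The comparison of IRI with NX asks what 4 hours of injury did to these genes. After IRI, 13 of the 36 members fell and 2 rose in TG kidneys, and 17 fell and none rose in WT kidneys (edgeR, adjusted p under 0.05 over all genes tested, with an unadjusted p under 0.05 for 22 members in TG and 23 in WT). Over all 19264 genes tested, 29.4% were called in TG, 13% lower and 16.4% higher, and 30.9% in WT, 14.1% lower and 16.8% higher; the unadjusted p was under 0.05 for 39.0% and 40.7% of them. The median log2 change of the members was -0.28 in TG and -0.42 in WT, beside -0.007 over all genes in both. In both genotypes 11 members fell, which is 84.6% of those that fell in TG and 64.7% of those in WT. The same overlap was not counted over all genes, so it is not shown to be particular to the members. Lrp2, the receptor megalin, changed most in both genotypes, while the phosphate cotransporters of the brush border did not pass the test. In whole kidney, fewer proximal tubule cells and less RNA per cell cannot be told apart. Leaving out WT NX replicate 0, the library with fat-cell genes, raised the number of members that fell in WT to 24, and leaving out TG NX replicate 2 lowered the number called in TG to 9. Without the library labelled WT IRI replicate 1, in which EGFP was counted, 17 members still fell in WT.

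Filtered proteins are bound by megalin, encoded by Lrp2, and cubilin, encoded by Cubn. Lrp2 was at 889 to 1363 CPM (median 1146) in TG IRI kidneys, against 2069, 2679 and 1986 CPM in TG NX kidneys. WT IRI kidneys had Lrp2 at 965 to 2079 CPM (median 1385), against 1922, 3079.7 and 3418 CPM in WT NX kidneys. All TG IRI libraries lay below all TG NX libraries, while in WT the highest IRI library lay above the lowest NX library. Changes are given on the log2 scale with their standard error. That of Lrp2 was -0.98 ± 0.20 in TG (edgeR adjusted p = 0.000923) and -0.99 ± 0.20 in WT (0.000849), a level 1.98-fold and 1.99-fold lower. Cubn was at 303 to 391 CPM (median 353) in TG IRI kidneys, against 436, 576 and 467 CPM in TG NX kidneys. Its WT values were 279 to 444 CPM (median 343) after IRI and 421, 726 and 762 CPM after NX, and here too the WT groups overlapped. The change of Cubn was -0.50 ± 0.16 in TG (adjusted p = 0.0228, edgeR) and -0.86 ± 0.16 in WT (0.000355). Its TG call was lost without TG NX replicate 1 and with replicate numbers 0 to 2 alone. Dab2, the adaptor that links both receptors to clathrin, fell by 0.46 ± 0.11 in TG and by 0.50 ± 0.11 in WT on the log2 scale (edgeR adjusted p = 0.00421 and 0.00219). Amn, which anchors cubilin in the membrane, did not pass the test at 0.10 ± 0.17 in TG and -0.05 ± 0.17 in WT.

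**Figure D1:**
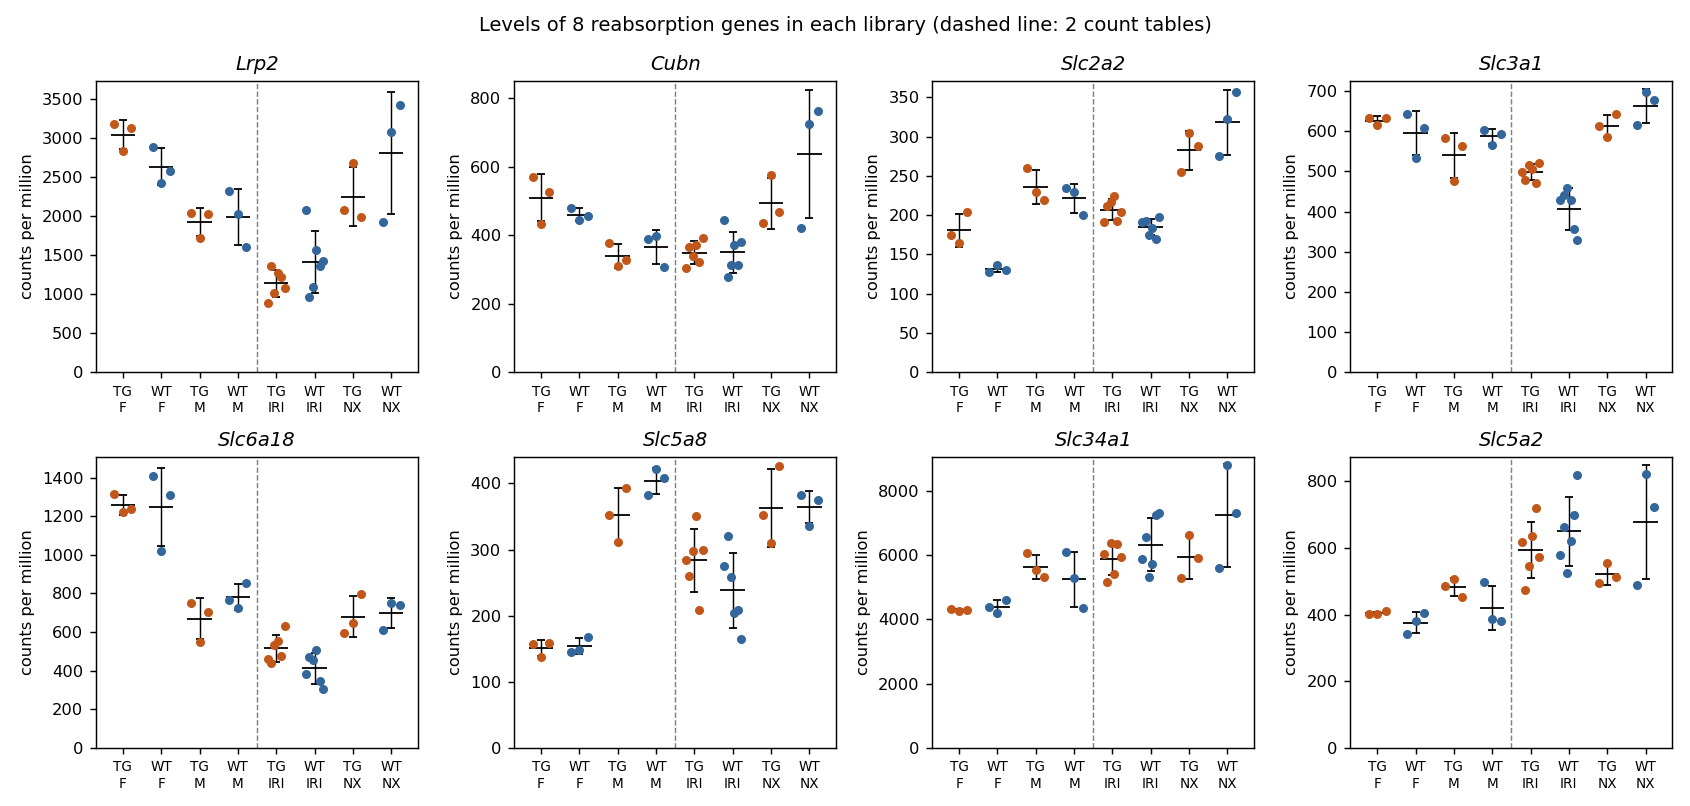
Levels in CPM of 8 members in each library (points), with the mean and SD of each group (bars); TG libraries are orange and WT blue, F and M are females and males without surgery, and the dashed line parts the 2 count tables. Lrp2 averages 1136 CPM in TG and 1409 CPM in WT kidneys after IRI, against 2244 and 2806 CPM after NX, while Slc34a1 and Slc5a2 overlap between IRI and NX in both genotypes.

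Of the 6 carriers of apical amino acid uptake, 4 fell and 1 rose in TG and 5 fell in WT. These counts, and those of the roles below, stand beside the shares over all genes. In TG 13% of all genes were called lower and 16.4% higher, and in WT 14.1% lower and 16.8% higher. Slc3a1, whose protein pairs with that of Slc7a9 to take up cystine and basic amino acids, was at 472 to 520.5 CPM (median 502) in TG IRI kidneys, against 612, 585 and 642 CPM in TG NX kidneys. The WT levels of Slc3a1 were 329 to 459.7 CPM (median 429) after IRI, against 616, 698 and 677 CPM after NX. The groups did not overlap in either genotype, and the changes were -0.30 ± 0.09 in TG (edgeR adjusted p = 0.0176, lost without TG NX replicate 2) and -0.70 ± 0.09 in WT (8.02e-06). Prepl on the other strand covers 26.5% of the exon length of Slc3a1 in the annotation counted, and counting by strand is not stated. Slc6a18, a neutral amino acid carrier of the late tubule, was at 439 to 629 CPM (median 503) in TG IRI kidneys, against 593, 646 and 799 CPM in TG NX kidneys. Its WT values were 306 to 505 CPM (median 418) after IRI and 611, 750.0 and 741 CPM after NX. The groups overlapped in TG, where the change was -0.40 ± 0.15 (edgeR adjusted p = 0.0449), and not in WT, where it was -0.77 ± 0.14 (0.000454). That TG call was lost in 6 of the 9 fits that left out 1 library: without NX replicate 1 or 2, or IRI replicate 0, 1, 2 or 4. Slc6a20b, a carrier of proline and related imino acids, was at 191 to 231 CPM (median 217) in TG IRI kidneys, against 270.0, 315 and 288 CPM in TG NX kidneys. In WT it was at 179 to 217 CPM (median 205) after IRI, against 266, 345 and 320.1 CPM after NX. IRI libraries lay below NX libraries in both genotypes, at -0.45 ± 0.09 in TG (edgeR adjusted p = 0.000777) and -0.64 ± 0.09 in WT (2.23e-05). Sacm1l on the other strand covers 21.1% of the exon length of Slc6a20b, and Slc6a20a is its near paralog.

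Slc1a1, the glutamate carrier of the late tubule, fell in both genotypes, by 0.28 ± 0.09 in TG (edgeR adjusted p = 0.0224, lost without TG NX replicate 0 or 2) and by 0.49 ± 0.09 in WT (0.000292) on the log2 scale. Slc7a9, the light chain that pairs with Slc3a1, fell by 0.55 ± 0.12 in WT (edgeR adjusted p = 0.00131) and was at -0.28 ± 0.12 in TG (0.079). Slc6a19, the main neutral amino acid carrier of the early tubule, was 0.21 ± 0.08 higher after IRI in TG (edgeR adjusted p = 0.039), where the groups overlapped. In WT it was at -0.14 ± 0.07 (0.179), with all IRI libraries, at 423 to 474 CPM, below the NX libraries, at 483, 503 and 507 CPM. The TG call was lost without TG NX replicate 1 or 2 and without TG IRI replicate 1 or 5. It was also lost in 5 of 9 other settings, among them upper-quartile scaling, which gave 0.08. Among the 6 basolateral carriers, 1 fell in each genotype. In TG this was Slc43a2, a carrier of branched-chain amino acids, at -0.72 ± 0.18 (edgeR adjusted p = 0.00524). In WT it was Slc6a13, a carrier of GABA and taurine, at -0.51 ± 0.10 (0.000841). The glutamine carrier Slc38a3 had a large change with a wide error, -0.66 ± 0.27 in TG and -0.67 ± 0.27 in WT, and did not pass the test (edgeR adjusted p = 0.0723 and 0.0676). Slc7a7, Slc7a8 and Slc16a10 did not pass it either, with changes from -0.43 to 0.27.

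Sugar transport divided between its members. Slc2a2, the basolateral glucose carrier of the early tubule, was at 191 to 224 CPM (median 208) in TG IRI kidneys, against 255, 304 and 288 CPM in TG NX kidneys. In WT IRI kidneys Slc2a2 was at 169.9 to 197 CPM (median 187), against 275, 322 and 357 CPM in WT NX kidneys. Every IRI library lay below every NX library of its genotype, and the changes were -0.45 ± 0.08 in TG (edgeR adjusted p = 0.000395) and -0.78 ± 0.08 in WT (8.49e-07). Slc5a1 was at 61.4 to 80.5 CPM (median 66) in TG IRI kidneys, against 82, 93.4 and 101 CPM in TG NX kidneys. WT IRI kidneys had it at 57.9 to 86.6 CPM (median 70.8), against 84.1, 104 and 109 CPM in WT NX kidneys. The groups were apart in TG and overlapped in WT, where the IRI library of 86.6 CPM lay above the NX library of 84.1. Its changes were -0.43 ± 0.12 in TG (edgeR adjusted p = 0.0109) and -0.47 ± 0.12 in WT (0.0054), and each call was lost without NX replicate 2 of that genotype. Slc5a2 was at 475 to 721 CPM (median 596) in TG IRI kidneys, against 494, 555 and 514 CPM in TG NX kidneys. The WT levels were 524 to 821 CPM (median 641) after IRI, against 490.1, 823 and 722 CPM after NX. The groups overlapped, and Slc5a2 did not pass the test, at 0.19 ± 0.15 in TG (edgeR adjusted p = 0.382) and -0.06 ± 0.15 in WT (0.805). Slc5a10, a carrier of fructose and mannose, fell by 0.49 ± 0.12 in WT (edgeR adjusted p = 0.00469, lost without WT NX replicate 1) and was at -0.25 ± 0.12 in TG (0.145).

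Of the phosphate carriers, none passed the test in WT and Slc20a2 rose in TG. Slc34a1 was at 5178 to 6381 CPM (median 5987) in TG IRI kidneys, against 5274, 6623 and 5904 CPM in TG NX kidneys. In WT IRI kidneys Slc34a1 was at 5306 to 7298 CPM (median 6208), against 5605, 8798 and 7301 CPM in WT NX kidneys. The groups overlapped, with changes of -0.01 ± 0.13 in TG and -0.19 ± 0.13 in WT (edgeR adjusted p = 0.954 and 0.274). Slc34a3, the minor brush border phosphate cotransporter, was at 58.1 to 82.7 CPM (median 66.2) in TG IRI kidneys, against 69.9, 72.4 and 65.8 CPM in TG NX kidneys. Its WT values were 69.2 to 97.3 CPM (median 77.7) after IRI and 67, 90.7 and 80.8 CPM after NX. These groups overlapped as well, and the changes were -0.04 ± 0.12 in TG and 0.00 ± 0.12 in WT (edgeR adjusted p = 0.855 and 0.993). Slc20a2, a widely expressed phosphate carrier, was 0.40 ± 0.09 higher in TG IRI than TG NX kidneys (edgeR adjusted p = 0.00173) and at 0.12 ± 0.09 in WT (0.331).

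Among the organic acid carriers, Slc5a8, the high-affinity lactate and monocarboxylate cotransporter of the late tubule, was at 208 to 351 CPM (median 291) in TG IRI kidneys, against 353, 309.6 and 426 CPM in TG NX kidneys. WT IRI kidneys had it at 164 to 321 CPM (median 234), against 382, 336 and 375 CPM in WT NX kidneys. IRI lay below NX without overlap in WT, where Slc5a8 changed by -0.61 ± 0.17 (edgeR adjusted p = 0.0093), and overlapped in TG, where it was at -0.36 ± 0.17 (0.127). With replicate numbers 0 to 2 alone, the WT call of Slc5a8 was lost. Its low-affinity counterpart of the early tubule, Slc5a12, fell in TG (-0.52 ± 0.15, edgeR adjusted p = 0.0151, lost without TG NX replicate 2) and was at -0.27 ± 0.16 in WT (0.201). The 5 carriers of dicarboxylate, sulfate and oxalate (Slc13a1, Slc13a2, Slc13a3, Slc26a1 and Slc26a6) did not pass the test in either genotype, with changes from -0.18 to 0.27 in TG and from -0.37 to 0.18 in WT. Neither the sodium-proton exchanger Slc9a3, at -0.02 ± 0.09 in TG and 0.05 ± 0.09 in WT, nor the sodium-bicarbonate carrier Slc4a4, at -0.16 ± 0.13 and -0.32 ± 0.13, passed it.

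Slc23a1, the ascorbate cotransporter, was at 148 to 197 CPM (median 166) in TG IRI kidneys, against 212, 209 and 247 CPM in TG NX kidneys. The WT levels were 106 to 157 CPM (median 139) after IRI, against 182, 213 and 212 CPM after NX. IRI and NX libraries did not overlap, and the changes were -0.42 ± 0.11 in TG (edgeR adjusted p = 0.00884, lost without TG NX replicate 2) and -0.57 ± 0.11 in WT (0.000734). Aqp1 fell by 0.48 ± 0.11 in WT (edgeR adjusted p = 0.00329) and was at -0.29 ± 0.11 in TG (0.0694). Pdzk1, the scaffold under the brush border, fell by 0.29 ± 0.11 in TG (edgeR adjusted p = 0.0431) and by 0.43 ± 0.10 in WT (0.00415) on the log2 scale. The TG call was lost without NX replicate 1 or IRI replicate 1, 2, 3 or 5, and without a filter on low counts. Both calls were lost with replicate numbers 0 to 2 alone. Genes on the other strand cover 41.7% of the exon length of Pdzk1. Hnf4a was at 682 to 861 CPM (median 777) in TG IRI kidneys, against 991, 1059 and 862 CPM in TG NX kidneys. In WT IRI kidneys Hnf4a was at 506 to 918 CPM (median 781), against 929.6, 1124 and 959 CPM in WT NX kidneys. All IRI libraries lay below all NX libraries of their genotype. The change of -0.45 ± 0.13 in WT passed the test (edgeR adjusted p = 0.0159) and that of -0.32 ± 0.13 in TG did not (0.0833). The WT call was lost without WT NX replicate 1, with replicate numbers 0 to 2 alone and in a fit of the 9 WT NX and IRI libraries alone.

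**Figure D2:**
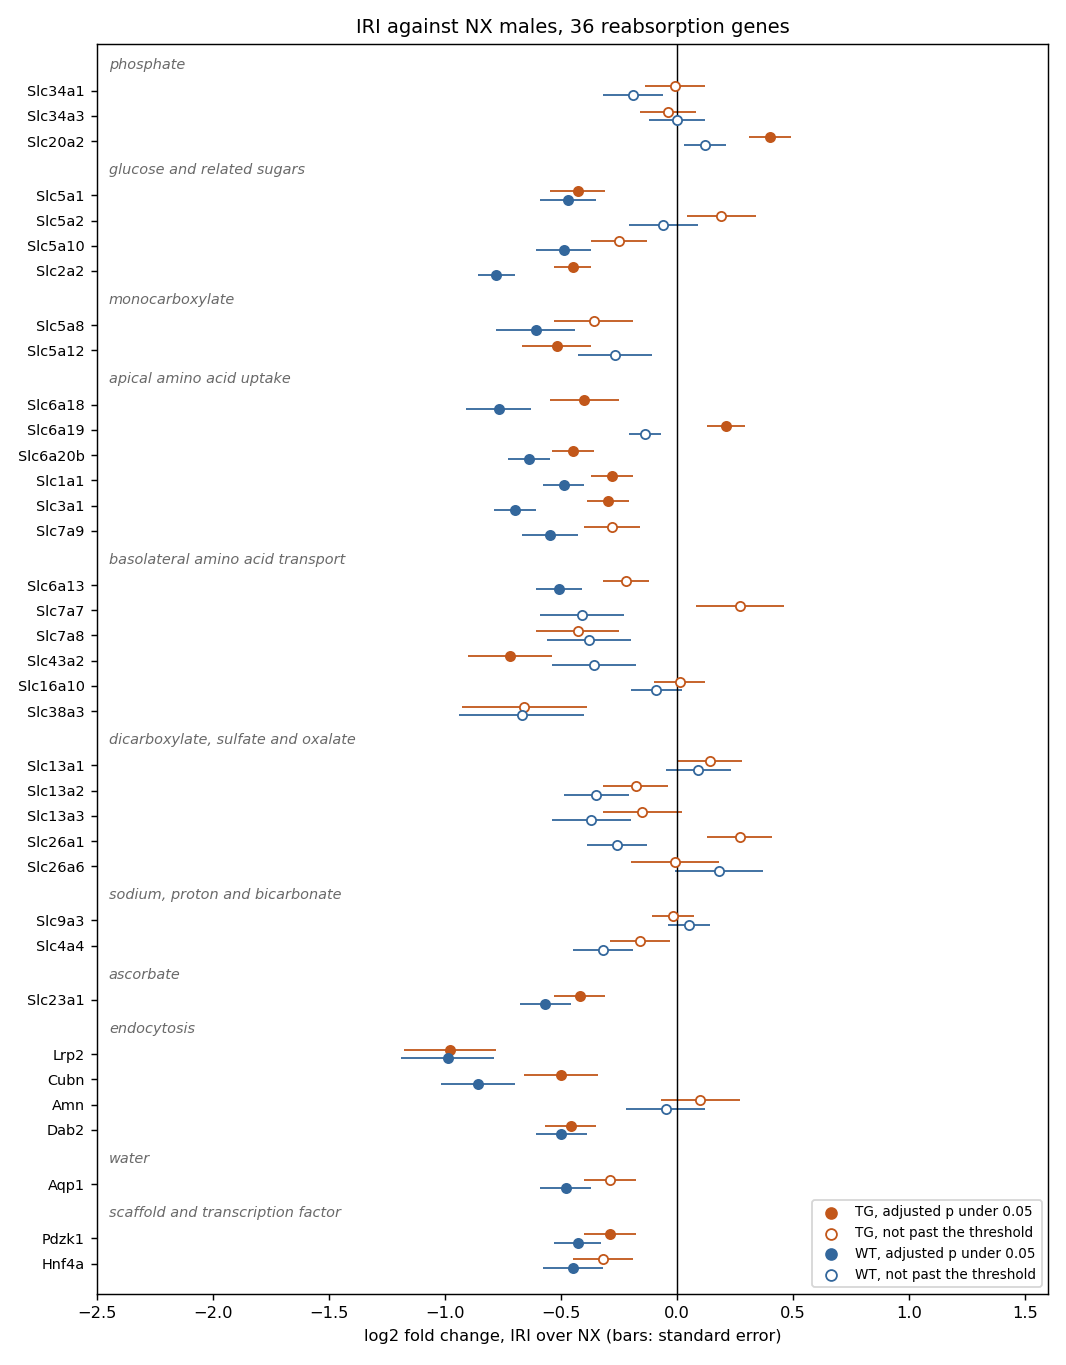
Log2 fold change of IRI over NX for each of the 36 members, grouped by role, with the standard error as a bar; TG is drawn in orange above WT in blue, and filled points passed an adjusted p of 0.05. Most points lie left of 0, down to -0.98 in TG and -0.99 in WT for Lrp2. The points of the phosphate cotransporters Slc34a1 and Slc34a3 are open in both genotypes.

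The members were also set apart by the stretch of tubule they are known from, a grouping made with earlier results of these data known. Of the 6 late members (Slc5a1, Slc5a8, Slc6a18, Slc1a1, Slc3a1 and Slc38a3), 4 fell in TG and 5 in WT, with median log2 changes of -0.38 and -0.64. Of the 9 early members (Slc5a2, Slc2a2, Slc5a12, Slc34a1, Slc34a3, Slc6a19, Slc4a4, Slc7a7 and Slc7a8), 2 fell and 1 rose in TG and 1 fell in WT, with medians of -0.04 and -0.27. The 21 members not tied to a segment had medians of -0.25 in TG and -0.43 in WT. Of all genes tested, 13% were called lower and 16.4% higher in TG, and 14.1% lower and 16.8% higher in WT. Relative to the mean of WT NX kidneys, the median late member stood at -0.57 to -0.28 in TG IRI and -0.93 to -0.51 in WT IRI libraries, against -0.11 to 0.12 in TG NX and -0.15 to 0.08 in WT NX libraries. IRI libraries lay below NX libraries for the late genes. For the early genes the range was -0.46 to -0.17 in TG IRI and -0.29 to -0.13 in WT IRI libraries, against -0.29 to -0.10 in TG NX and -0.41 to 0.26 in WT NX libraries, so these overlapped. The early count in WT changed with the library set and with the method. Without WT NX replicate 0, which held the early genes at -0.41, 5 of 9 early and 6 of 6 late members fell, with medians of -0.44 and -0.66. With all libraries kept, upper-quartile scaling and limma-voom each called 4 of 9 early and 6 of 6 late members lower in WT, with early medians of -0.36 and -0.33 and late medians of -0.72 and -0.64. Without TG NX replicate 2, no late member passed the test in TG (median -0.27). The difference between segments itself was not tested.

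**Figure D3:**
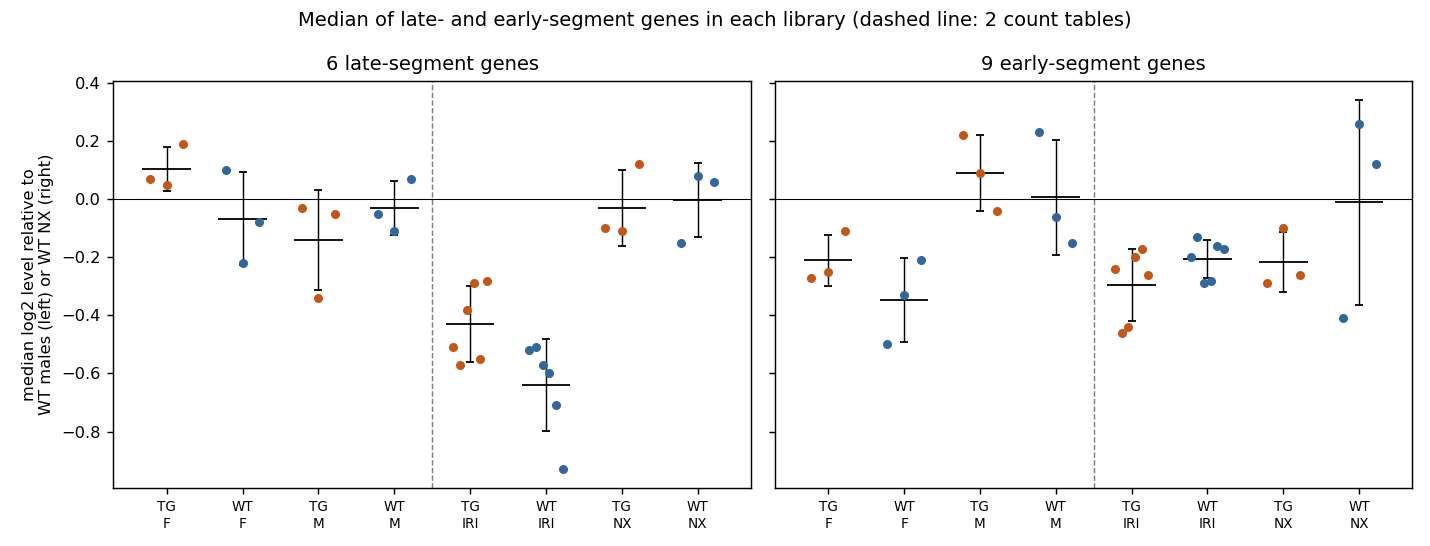
Median log2 level of the 6 late and 9 early members in each library (points), relative to the mean of WT males without surgery left of the dashed line and of WT NX kidneys right of it, with the mean and SD of each group; TG is orange and WT blue. Late members lie between -0.93 and -0.28 in all 12 IRI libraries, below every NX library, while the early members of the IRI and NX groups overlap.

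Some markers of other cell types also passed the test between IRI and NX. The counts below stand beside 29.4% of all genes called in TG and 30.9% in WT. Of the 4 thick ascending limb markers, 1 fell in TG and 3 rose and 1 fell in WT, and their summed level was 2764 to 4571 CPM in TG IRI and 3549 to 6154 CPM in WT IRI kidneys, against 2713 to 4279.8 CPM in TG NX and 2437 to 3075 CPM in WT NX kidneys. All 3 red cell genes rose in both genotypes, to sums of 27.6 to 141 CPM in TG IRI and 104 to 1218 CPM in WT IRI kidneys, against 3.21 to 17.9 CPM in TG NX and 34.0 to 115 CPM in WT NX kidneys. The 6 proximal tubule markers outside the set summed to 26368 to 32761 CPM in TG IRI and 24151 to 29968 CPM in WT IRI kidneys, against 27847 to 36703 CPM in TG NX and 36086 to 38812 CPM in WT NX kidneys, and 1 of them fell in TG and 4 in WT. The 4 neutrophil markers all rose in both genotypes. Of the 5 endothelial markers 1 rose in TG and 2 in WT, of the 4 podocyte markers 2 rose in WT, and in each genotype 1 macrophage marker of 4 rose and 1 fell. Among the 4 intercalated cell markers 1 fell in each, and among the 3 collecting duct markers tested 1 rose in WT. No distal convoluted tubule or stromal marker passed the test, and 2 of 4 fat-cell markers fell in WT. The part of these shifts in the changes of the members was not tested.

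Females and males without surgery were compared to describe how the sexes differ in these genes at rest. In females, 9 members were higher and 9 lower than in males in TG kidneys, and 5 were higher and 11 lower in WT kidneys (edgeR, adjusted p under 0.05, with an unadjusted p under 0.05 for 21 and 22). Of the 19126 genes tested, 21.2% were called in TG, 9.87% higher and 11.3% lower, and 21.3% in WT, 10.1% higher and 11.3% lower; the unadjusted p was under 0.05 for 33.2% and 33.4% of them. The median log2 change of the members was -0.10 in TG and -0.15 in WT, beside 0.022 and 0.029 over all genes. All 5 members higher in WT females were also higher in TG females: Slc5a1, Slc5a10, Slc6a18, Slc13a2 and Lrp2. Lower in females of both genotypes were 8: Slc20a2, Slc2a2, Slc5a8, Slc1a1, Slc43a2, Slc26a1, Slc4a4 and Hnf4a. These overlaps between the genotypes were not counted over all genes. In TG 11 of 18 calls and in WT 11 of 16 held in every fit run other than that with a 2-fold minimum.

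Slc5a8 showed the largest sex difference of the set. It was at 157, 137 and 158 CPM in TG females, against 353, 311 and 393 CPM in TG males. WT females had it at 145, 148 and 168 CPM, against 383, 422 and 408 CPM in WT males. Every female library lay below every male library, with changes of -1.23 ± 0.09 in TG (2.34-fold lower, edgeR adjusted p = 3.04e-06) and -1.40 ± 0.09 in WT (2.64-fold lower, 9.5e-07). Slc5a12, its early-tubule counterpart, was at 268, 317 and 304 CPM in TG females, against 328, 332 and 311 CPM in TG males. Its WT values were 215, 224 and 239 CPM in females and 370.2, 328 and 331 CPM in males. The sexes overlapped in TG, where Slc5a12 was at -0.13 ± 0.08 (edgeR adjusted p = 0.269), and stood apart in WT, at -0.61 ± 0.08 (0.00012).

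Slc6a18 (GRCm39, minus strand, chr13:73809871-73826142) and Slc6a19 (minus strand, chr13:73827864-73852984) are neighbours that went opposite ways between the sexes in WT. Slc6a18 was at 1318, 1222 and 1237 CPM in TG females, against 753, 548 and 706 CPM in TG males. Levels were 1411, 1019 and 1313 CPM in WT females, against 764, 723 and 854 CPM in WT males. It stood higher in all female libraries, by 0.91 ± 0.13 in TG (edgeR adjusted p = 0.000387) and 0.68 ± 0.13 in WT (0.00259). Slc6a19 was at 383, 368 and 323 CPM in TG females, against 486, 398 and 413 CPM in TG males. In WT females Slc6a19 was at 260.1, 269 and 221 CPM, against 565, 437 and 405 CPM in WT males. It stood lower in all female libraries; the change of -0.91 ± 0.13 passed the test in WT (edgeR adjusted p = 0.00027) and that of -0.27 ± 0.13 in TG did not (0.148). Of the other apical amino acid carriers, Slc1a1 was lower in females, at -0.34 ± 0.10 in TG and -0.54 ± 0.10 in WT, and Slc7a9 was higher by 0.32 ± 0.08 in TG and at 0.16 ± 0.08 in WT without passing the test. Slc3a1 was at 0.21 ± 0.08 in TG, with all female above all male libraries, and at 0.02 ± 0.08 in WT, and Slc6a20b at -0.13 ± 0.08 and -0.19 ± 0.08; neither passed the test (edgeR adjusted p from 0.096 to 0.907). The TG call of Slc1a1 was lost without TG male replicate 0 or 2 or TG female replicate 1 or 2, and with upper-quartile scaling. That of Slc7a9 was lost without TG male replicate 2 or TG female replicate 1. Slc43a2 was the sole basolateral amino acid carrier to pass it, lower in females of both genotypes at -0.42 ± 0.08 and -0.32 ± 0.08; the WT call was lost without female replicate 0 or male replicate 0 or 2.

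Sugar carriers differed in both directions. Slc5a1 was at 145, 139.8 and 142 CPM in TG females, against 97.5, 102 and 85.4 CPM in TG males. In WT females it was at 143, 132 and 157 CPM, against 96.9, 87.1 and 131 CPM in WT males. Female libraries lay above male ones, narrowly in WT, and the changes were 0.58 ± 0.13 in TG (edgeR adjusted p = 0.00553) and 0.46 ± 0.13 in WT (0.0205). The WT call was lost without female replicate 0 or 2 or male replicate 0 or 1, and in a fit of the 6 WT libraries alone. Slc5a10 was at 286, 275 and 280.1 CPM in TG females, against 178, 198 and 158 CPM in TG males. In WT females Slc5a10 was at 318, 224 and 321 CPM, against 195, 186 and 209 CPM in WT males. It too was higher in every female library, by 0.66 ± 0.12 in TG (edgeR adjusted p = 0.00217) and 0.55 ± 0.12 in WT (0.00639). Slc2a2 was at 174, 164 and 204 CPM in TG females, against 260.4, 229 and 219 CPM in TG males. WT females had it at 128, 136 and 129.6 CPM, against 235, 229 and 199.6 CPM in WT males. Female libraries were lower, at -0.38 ± 0.09 in TG (edgeR adjusted p = 0.0112, lost without TG male replicate 0) and -0.75 ± 0.09 in WT (0.000117). Slc5a2 was at 403, 402 and 409.7 CPM in TG females, against 487, 506 and 453 CPM in TG males. Levels were 342, 382 and 404 CPM in WT females, against 497, 386 and 380.2 CPM in WT males. The sexes stood apart in TG and overlapped in WT, and Slc5a2 did not pass the test in either genotype, at -0.25 ± 0.10 in TG and -0.16 ± 0.10 in WT (edgeR adjusted p = 0.0905 and 0.275).

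Lrp2 was at 3171, 2825 and 3119 CPM in TG females, against 2037, 1712 and 2021 CPM in TG males. In WT females it was at 2886, 2424 and 2579 CPM, against 2323, 2020.4 and 1605 CPM in WT males. Female libraries were higher in both genotypes, by 0.66 ± 0.12 in TG (edgeR adjusted p = 0.0024) and 0.41 ± 0.12 in WT (0.0337). The WT call was lost without female replicate 0 or 2 or male replicate 1 or 2, and in a fit of the 6 WT libraries alone. Cubn was at 571, 434 and 525 CPM in TG females, against 377, 309 and 328 CPM in TG males. In WT females Cubn was at 480.3, 444 and 456 CPM, against 389, 397 and 307 CPM in WT males. Groups did not overlap, and the change passed the test in TG, at 0.59 ± 0.12 (edgeR adjusted p = 0.00323), and missed it in WT, at 0.34 ± 0.12 (0.0581). Dab2 and Amn did not pass it, with changes between -0.25 and 0.06. Slc23a1 and Aqp1 were higher in TG females, by 0.50 ± 0.10 and 0.34 ± 0.10, and at 0.20 ± 0.10 and 0.24 ± 0.10 in WT, where they did not pass the test. The Aqp1 call was lost in 5 of 6 fits that left out 1 library, all except that without TG male replicate 2. It was also lost with both no-surgery libraries with fat-cell genes left out.

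Slc34a1 was at 4318, 4262 and 4281 CPM in TG females, against 6061, 5525 and 5333 CPM in TG males. WT females had it at 4375, 4183 and 4605 CPM, against 6088, 5289 and 4363 CPM in WT males. The sexes stood apart in TG, at -0.40 ± 0.11 (edgeR adjusted p = 0.0187, lost without TG male replicate 0 or TG female replicate 1 or 2), and overlapped in WT, at -0.26 ± 0.11 (0.108). Slc34a3 was at 81.8, 76.2 and 80.8 CPM in TG females, against 104, 94.8 and 78.8 CPM in TG males. Levels were 58.4, 74.6 and 71.4 CPM in WT females, against 104, 75 and 72.5 CPM in WT males. The sexes overlapped and Slc34a3 did not pass the test, at -0.22 ± 0.14 and -0.30 ± 0.14 (edgeR adjusted p = 0.314 and 0.155). Slc20a2 was lower in females at -0.26 ± 0.07 in TG and -0.41 ± 0.07 in WT (edgeR adjusted p = 0.0172 and 0.000909), the TG call being lost without TG male replicate 0 or TG female replicate 1.

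Slc13a2, the brush border citrate and dicarboxylate carrier, was at 68.7, 59.2 and 68.6 CPM in TG females, against 42.8, 30 and 36.6 CPM in TG males. In WT females it was at 71.4, 64.4 and 70.6 CPM, against 41.3, 45.6 and 34.1 CPM in WT males. It was higher in every female library, by 0.85 ± 0.13 in TG (edgeR adjusted p = 0.000555) and 0.77 ± 0.13 in WT (0.000968). Its antisense gene covers 26.2% of its exon length, so their reads cannot be told apart where counting ignored strand. Slc26a1, a basolateral sulfate and oxalate exchanger, was at 163, 171 and 148 CPM in TG females, against 313, 206 and 262 CPM in TG males. In WT females Slc26a1 was at 146, 149 and 122 CPM, against 241, 254 and 174 CPM in WT males. Female libraries were lower in both genotypes, at -0.70 ± 0.16 in TG (edgeR adjusted p = 0.00713) and -0.68 ± 0.16 in WT (0.00785). Slc4a4 was lower in females at -0.35 ± 0.08 in TG and -0.49 ± 0.08 in WT (edgeR adjusted p = 0.0057 and 0.000596), while Slc9a3 was at -0.04 ± 0.08 and -0.01 ± 0.08. The sulfate cotransporter Slc13a1 was lower in WT females, at -0.42 ± 0.11 (edgeR adjusted p = 0.0157, lost without WT female replicate 2 or male replicate 0), and at -0.08 ± 0.11 in TG. Slc13a3, a basolateral dicarboxylate cotransporter, was at 0.03 ± 0.11 in TG and 0.32 ± 0.11 in WT (edgeR adjusted p = 0.871 and 0.067), with all female above all male libraries in WT alone. Slc26a6 was at -0.06 ± 0.13 in TG and 0.04 ± 0.13 in WT (edgeR adjusted p = 0.815 and 0.884).

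Hnf4a was at 867, 847 and 833 CPM in TG females, against 1123, 983 and 1041 CPM in TG males. WT females had it at 925, 776 and 859.7 CPM, against 1195, 1024 and 951 CPM in WT males. Female libraries lay below male ones, at -0.30 ± 0.09 in TG and -0.31 ± 0.09 in WT (edgeR adjusted p = 0.0323 and 0.0307). The call rested on few libraries. In TG it was lost in 5 of 6 fits that left out 1 library, all except that without TG male replicate 1. Upper-quartile scaling also ended the TG call. In WT it was lost without male replicate 0 or 1 or female replicate 1 or 2. The WT call was also lost with both no-surgery libraries with fat-cell genes left out, and in a fit of the 6 WT libraries alone. Pdzk1 was at -0.08 ± 0.07 and 0.00 ± 0.07.

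**Figure D4:**
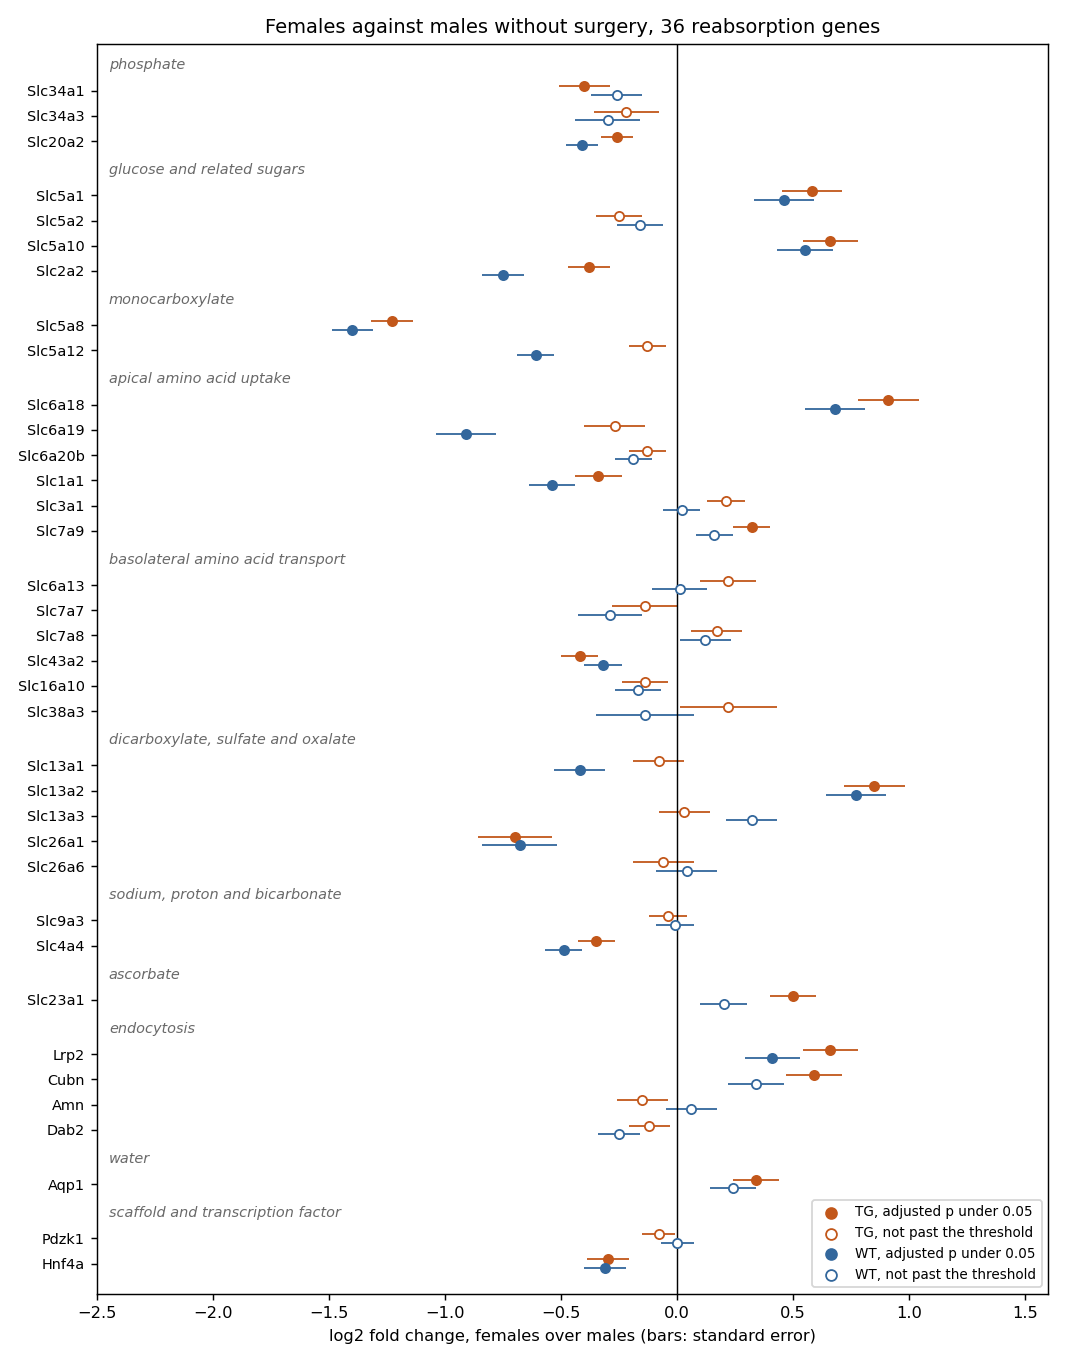
Log2 fold change of females over males without surgery for each of the 36 members, grouped by role, with the standard error as a bar; TG is drawn in orange above WT in blue, and filled points passed an adjusted p of 0.05. Points fall on both sides of 0, from -1.40 for Slc5a8 in WT to 0.91 for Slc6a18 in TG.

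Of the 9 early members, 3 were lower in females in TG and 4 in WT, and none was higher. Without TG male replicate 0, the count in TG was 1. Of the 6 late members, 2 were higher and 2 lower in each genotype. Females also had higher markers of other tubule segments: summed thick ascending limb markers were at 6055 to 6555 CPM in TG and 6118 to 7047 CPM in WT females, against 3682 to 4049 CPM in TG and 3662 to 5593 CPM in WT males, and 3 of 4 of these markers were called in each genotype. All 4 distal convoluted tubule markers, all 4 intercalated cell markers and 3 of 4 podocyte markers were higher in females of both genotypes, as were 1 of 4 stromal markers and, of the 3 collecting duct markers tested, 1 in TG and 3 in WT. Of the 6 proximal tubule markers outside the set, 3 were lower in females of each genotype, and they summed to 16317 to 20059 CPM in TG and 14502 to 19156 CPM in WT females, against 28519 to 36496 CPM in TG and 29006 to 36329 CPM in WT males. No endothelial, macrophage, neutrophil or red cell marker passed the test, and 1 of 4 fat-cell markers was higher in WT females. Over all genes, 21.2% were called between the sexes in TG and 21.3% in WT. The part of these markers in the sex differences of the members was not tested. With WT female replicate 1 and TG male replicate 1, both with fat-cell genes, left out, 8 members were higher and 9 lower in TG and 7 higher and 10 lower in WT females.

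Ratios of related carriers per kilobase do not depend on library size. Slc5a1 stood at 0.248 ± 0.00493 of Slc5a2 in TG and 0.271 ± 0.0246 in WT females, against 0.139 ± 0.00493 in TG and 0.180 ± 0.0556 in WT males (mean ± SD, n = 3 each). It stood at 0.0824 ± 0.0122 in TG IRI and 0.0784 ± 0.0106 in WT IRI kidneys (n = 6 each), against 0.125 ± 0.0122 in TG NX and 0.106 ± 0.0157 in WT NX kidneys (n = 3 each). The ratio was higher in females and lower after IRI, and it overlapped between IRI and NX in WT alone. Slc6a18 over Slc6a19 was 4.00 ± 0.308 in TG and 5.73 ± 1.27 in WT females, against 1.75 ± 0.190 in TG and 1.93 ± 0.432 in WT males. After IRI it was 1.19 ± 0.168 in TG and 1.02 ± 0.161 in WT kidneys, against 1.82 ± 0.377 in TG NX and 1.59 ± 0.140 in WT NX kidneys, with no overlap between IRI and NX in either genotype. Slc5a8 over Slc5a12 was 0.390 ± 0.0587 in TG and 0.517 ± 0.0169 in WT females, against 0.832 ± 0.123 in TG and 0.903 ± 0.101 in WT males. After IRI this ratio was 0.784 ± 0.133 in TG and 0.593 ± 0.0707 in WT kidneys, against 0.696 ± 0.0975 in TG NX and 0.783 ± 0.240 in WT NX kidneys, and IRI and NX overlapped in both genotypes. Slc34a3 stood at 0.0228 ± 0.00268 of Slc34a1 in TG IRI and 0.0251 ± 0.00236 in WT IRI kidneys, against 0.0234 ± 0.00255 in TG NX and 0.0220 ± 0.00165 in WT NX kidneys, and these groups overlapped.

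**Figure D5:**
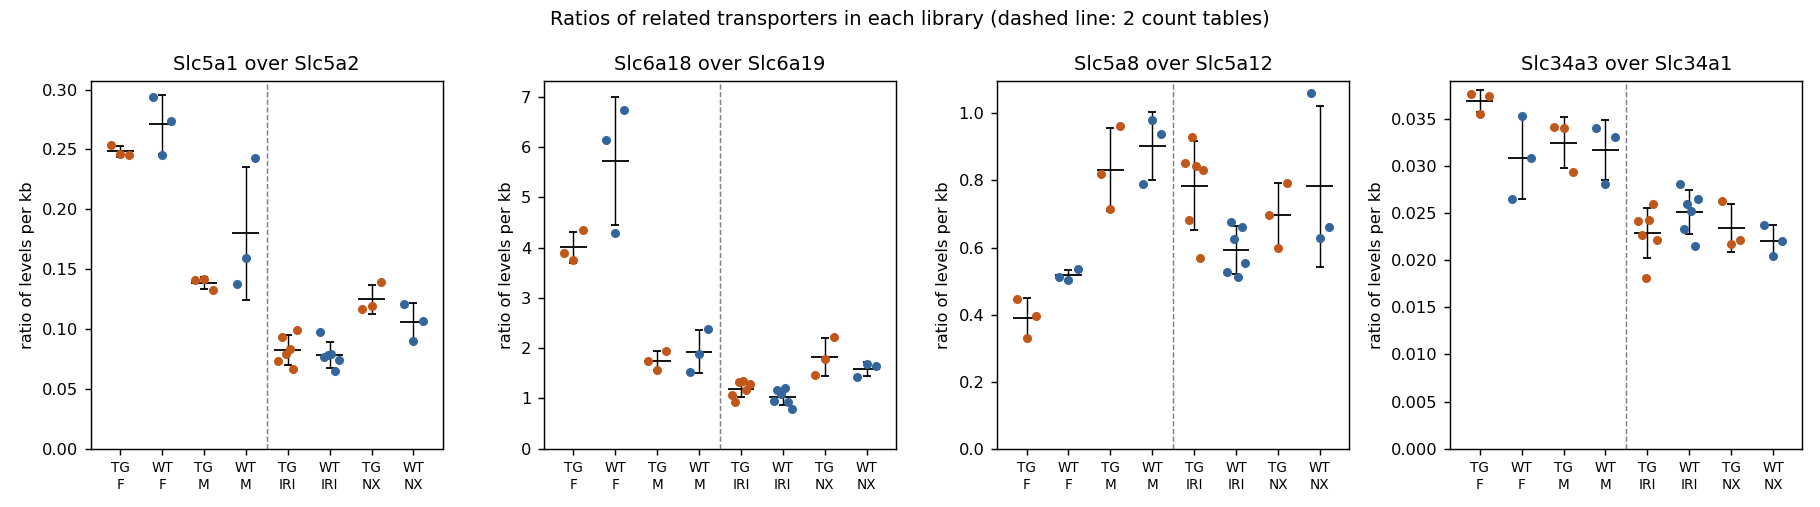
Ratio of the levels per kb of 4 pairs of related carriers in each library (points), with the mean and SD of each group; TG is orange and WT blue, and the dashed line parts the 2 count tables. Slc6a18 over Slc6a19 averages 4.00 in TG and 5.73 in WT females, against 1.75 and 1.93 in males, and 1.19 in TG and 1.02 in WT kidneys after IRI, against 1.82 and 1.59 after NX.

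The sex and injury comparisons use different libraries, and the members called in WT were set side by side. Of the 5 members higher in WT females, 4 fell after IRI in WT males: Slc5a1, Slc5a10, Slc6a18 and Lrp2. Of the 11 lower in WT females, 4 fell after IRI: Slc2a2, Slc5a8, Slc1a1 and Hnf4a. Another 9 fell after IRI without a call between the sexes, and 11 members were called in neither. Over all 36 members 17 fell, or 47.2%. Among the 18293 genes tested in both tables, 11.8% of those higher in WT females, 32.6% of those lower and 14.8% of all fell after IRI. Across the 36 members the sex and injury changes in WT correlated weakly, at a Pearson r of -0.23 and a Spearman rho of -0.29, a description over genes measured in the same libraries, which are not independent replicates.

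The comparison of TG with WT kidneys is the series' central contrast. No member passed the edgeR test in males without surgery (unadjusted p under 0.05 for 1 member), where 0.00523% of all genes did, all higher (unadjusted 5.22%). No member passed it in females (unadjusted for 7), where 0.0209% of all genes were higher and 0.0209% lower, 0.0418% in all (unadjusted 9.09%). After IRI again no member passed (unadjusted for 8), beside 0.00584% of all genes higher and 0.0643% lower, 0.0701% in all (unadjusted 14.1%). After NX the count was also 0 (unadjusted for 4), beside 0.00585% higher and 0.00585% lower, 0.0117% in all (unadjusted 6.77%). Changes ran from -0.24 to 0.23 in males, from -0.19 to 0.52 in females, from -0.35 to 0.32 after IRI and from -0.57 to 0.13 after NX. In females the largest were Slc6a19 at 0.52 ± 0.13, Slc2a2 at 0.46 ± 0.09 and Slc5a12 at 0.39 ± 0.08 (edgeR adjusted p = 0.199, 0.127 and 0.0971), higher in TG. These 3 were called by DESeq2 and by edgeR without a filter on low counts, and DESeq2 called none in males or after NX and Slc3a1 after IRI. Without WT NX replicate 0, Slc7a7 passed the edgeR test after NX, at -0.77 (adjusted p = 0.041). Without the library labelled WT IRI replicate 1, no member passed after IRI. After IRI the members with the smallest p were Slc3a1 at 0.28 ± 0.08 and Slc20a2 at 0.23 ± 0.07 (edgeR adjusted p = 0.17 and 0.183), and after NX Slc26a1 at -0.51 ± 0.13 and Slc7a7 at -0.57 ± 0.18 (0.73 for both).

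Whether the sex or injury change differed between the genotypes was tested by interaction terms, and no member passed (edgeR, with an unadjusted p under 0.05 for 4 members for sex and 6 for injury). Of all genes, 0.00523% were called for sex, all lower, and 0% for injury (unadjusted 8.58% and 9.59%), and DESeq2 called Slc5a12 for sex and no member for injury. The largest sex by genotype terms were Slc6a19 at 0.63 ± 0.18 and Slc5a12 at 0.48 ± 0.11 (edgeR adjusted p = 0.392 and 0.279). For injury by genotype the term was above 0 in 30 of 36 members, with a median of 0.18 beside 0 over all genes. It was largest for Slc7a7 at 0.68 ± 0.26 and Slc26a1 at 0.54 ± 0.19 (edgeR adjusted p = 0.436 and 0.413). These terms share their libraries with the comparisons above: 28 of 36 members were below 0 in TG against WT after NX, with a median of -0.10, and 20 were above 0 after IRI, with a median of 0.04. The smaller number of members that fell in TG than in WT is therefore not shown to be a difference between the genotypes.

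Other genes of proximal reabsorption fall into lists of partners, regulators and enzymes. Over all genes, 29.4% were called in TG and 30.9% in WT after IRI, and 21.2% and 21.3% between the sexes. Of 15 further solute carriers, 6 rose and 3 fell in TG and 4 rose and 8 fell in WT after IRI. Slc38a2 and Slc7a5, amino acid carriers of growing and stressed cells, and Slc20a1, a phosphate carrier, rose in both: Slc38a2 by 2.69 ± 0.23 in TG and 2.58 ± 0.23 in WT, Slc7a5 by 2.78 ± 0.33 and 2.76 ± 0.33, and Slc20a1 by 3.16 ± 0.31 and 2.52 ± 0.30 on the log2 scale (edgeR adjusted p from 6.04e-08 to 4.18e-06). Slc36a1, a proton-coupled amino acid carrier, fell by 0.77 ± 0.09 in TG and 0.81 ± 0.09 in WT. Of 9 brush border enzymes, 2 fell in TG and 4 in WT. They included Mme, neprilysin, at -0.73 ± 0.14 and -0.65 ± 0.14, and in WT Mep1b, a meprin subunit, at -1.42 ± 0.23 (edgeR adjusted p = 0.000124), which was at -0.48 ± 0.24 in TG (0.141). Of 7 partners and scaffolds, 2 rose and 3 fell in TG and 1 rose and 4 fell in WT. Ezr, the ezrin that ties the brush border to actin, rose by 1.26 ± 0.12 in TG and 1.07 ± 0.12 in WT, and Slc9a3r2, a scaffold of Slc9a3, fell by 0.69 ± 0.16 and 0.65 ± 0.16.

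Of 10 genes of the endocytic machinery, 1 rose in TG and 3 fell in WT, among them the folate receptor Folr1 at -0.40 ± 0.07 and the megalin chaperone Lrpap1 at -0.32 ± 0.07. Of 11 regulators and phosphate hormone genes, 3 rose and 2 fell in TG and 2 rose and 3 fell in WT. In WT Kl, the klotho coreceptor, fell by 0.50 ± 0.12 and Pth1r, the parathyroid hormone receptor, by 0.35 ± 0.10. Vdr fell there by 0.42 ± 0.12, while Nr1h4 rose by 0.56 ± 0.16. Of 9 pump, carbonic anhydrase and channel genes, 1 rose and 2 fell in TG and 1 rose and 4 fell in WT, with Slc9a8, a sodium-proton exchanger, at -1.18 ± 0.19 in WT. The claudin Cldn2, a pore for sodium and water between the cells, fell by 0.55 ± 0.12 in TG and 0.59 ± 0.12 in WT, and Cldn10 did not pass the test.

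Between the sexes, 5 of the 15 further carriers were higher and 4 lower in TG females, and 4 were higher and 5 lower in WT females. Slc7a13, a late tubule light chain that pairs with Slc3a1, was at 1.24 to 2.44 CPM in TG and 1.65 to 3.59 CPM in WT females, against 636 to 865 CPM in TG and 743 to 804 CPM in WT males, a change of -8.63 ± 0.32 in TG and -8.39 ± 0.32 in WT (edgeR adjusted p = 6.55e-09 and 6.96e-09). Slc2a1, a basolateral glucose carrier, was 0.68 ± 0.13 higher in TG females and 1.07 ± 0.13 higher in WT females. Of the 11 regulators, 6 were lower in TG and 4 in WT females and none was higher; Hnf4g, a relative of Hnf4a, changed by -1.27 ± 0.22 in TG and by -1.96 ± 0.23 in WT. Of 9 brush border enzymes, 3 were higher and 3 lower in TG and 2 higher and 4 lower in WT females, with Mme higher by 1.27 ± 0.13 and 0.79 ± 0.13. Of 7 partners, 2 were higher and 1 lower in TG and 3 higher and 1 lower in WT females, with Slc9a3r2 higher by 0.32 ± 0.07 and 0.83 ± 0.08. Of 10 endocytic genes, 3 were lower in TG and 4 in WT females, led in WT by the chloride-proton exchanger Clcn5 at -0.54 ± 0.07. Of 9 pump, carbonic anhydrase and channel genes, 3 were higher and 2 lower in each genotype, with the potassium channel Kcnj15 lower in WT females at -0.72 ± 0.09. Cldn10 was lower in females of both genotypes, at -0.34 ± 0.08 in WT, and Cldn2 did not pass the test.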

How the data were processed

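Poly-A RNA of mouse kidney was sequenced in 30 libraries of 8 groups. The deposited files are 2 tables of raw counts per gene, which the authors made with featureCounts 2.0.3 over the exons of Ensembl release 112 with an added EGFP, per the file headers. Reads were trimmed with fastp 0.23.2 and aligned to GRCm39 with STAR 2.7.0, per the submitters' processing notes. Whether counting used strand, read pairs or multimapping reads is not given in the sources used here; 37.3 to 41.9% of the counts of 10 or more were odd. Other deposited columns give each gene's position and exon length, which set the levels per kb. Symbols came from GENCODE M21, which matched 51880 of 57133 identifiers (90.8%), and promoters from RefSeq.

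Each table was fitted apart with edgeR 4.0.16 (R 4.3.3): TMM factors, filterByExpr, and the quasi-likelihood test with Benjamini-Hochberg adjustment over all genes tested, calling an adjusted p under 0.05. Females and males, and IRI and NX, were compared within each genotype in a fit of all groups of their table, with interaction terms for genotype; TG and WT after NX and after IRI were fitted on those libraries alone. All 36 members passed the filter in every fit. Levels are counts scaled by effective library size, CPM below and above. The fit was tested on simulated data. DESeq2 1.42.0, limma 3.58.1 (voom), other scalings, no filter, counts divided by 2, a replicate block, left-out libraries and smaller fits were the alternatives.

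Members and gene lists were chosen with earlier results of these data known. Every member is accounted for by role; values per library are given for up to 8 called members with the largest change in IRI against NX and in females against males (WT), for called members of the genotype comparisons, and always for Slc5a1, Slc5a2, Slc34a1, Slc34a3, Lrp2, Cubn and Hnf4a. From the other lists up to 4 called genes with the smallest p in WT were named. Replicate numbers come from the titles and are not stated to mark shared animals or days. Without surgery, deviations of same-numbered libraries from their group means correlated over genes at r of 0.02 to 0.27. Among NX and IRI libraries r was -0.03 to 0.16. Since not every pair deviated together, numbers were not taken as pairs in either table, and the replicate block was run as an alternative.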

Additional observations from a re-analysis of the deposited data

Results flagged for a closer look

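In the 72 member and group combinations with 6 libraries each, 2 libraries stood far from the others of their group by Dixon's criterion, which chance meets in about 1 group in 20. Both were WT IRI replicate 5, where Amn was at 222 CPM, against 117 to 150.1 CPM in the other WT IRI libraries, and Pdzk1 was at 424 CPM, against 506 to 548 CPM. The same library had the lowest late-tubule median of the IRI libraries, at -0.93. Without it Pdzk1 still fell after IRI in WT, and Amn did not pass the test with or without it. The cause was not tested.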

How the results depend on the processing

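No called change turned its direction under any alternative run. Requiring a 2-fold change as well left 1 member called between females and males in TG and 1 in WT, and 0 between IRI and NX in either genotype. For TG against WT females, no filter on low counts and DESeq2 each gave 3 members, limma-voom 2 and the replicate block 1 (Slc6a19), against 0. DESeq2 gave 1 member for sex by genotype (Slc5a12) and 1 for TG against WT after IRI (Slc3a1), and no filter gave 1 for TG against WT after NX (Slc26a1). With 1 library left out, members called ranged from 12 to 17 between females and males in TG and in WT, from 9 (without TG NX replicate 2) to 15 for IRI in TG, from 15 to 24 (without WT NX replicate 0) for IRI in WT, from 0 to 1 for TG against WT after NX (1 without WT NX replicate 0), and stayed at 0 elsewhere. Upper-quartile scaling moved the median of all genes after IRI to -0.14 in TG and -0.10 in WT and gave 22 and 24 members called; relative to that median the members stood at -0.28 and -0.40, beside -0.27 and -0.41 in the fit reported. With the replicate block, 20 members in TG and 19 in WT were called between the sexes and 15 and 17 after IRI, where the block keeps numbers 0 to 2 alone; those libraries without the pairing term, a fit added after seeing the data, gave 15 and 16. Calls kept in every alternative but the 2-fold one were 6 of 15 for IRI in TG and 12 of 17 in WT, and 11 of 18 and 11 of 16 between the sexes. Every member had at least 579 counts in every library. The causes were not tested.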
